A study of Mus musculus with 8 samples.

Results

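The response of mouse quadriceps, a mostly fast thigh muscle, to a short cold exposure was read from 4 bead arrays of a set of 8, of which the other 4 carry brown fat, the heat-producing adipose tissue. The 4 arrays were chosen by their tissue and temperature labels. In the cold group, 2 arrays carried muscle from C57BL/6J mice on chow diet that had eaten overnight and were then placed at 4 °C for 4 h with neither food nor bedding. In the room-temperature group, 2 arrays carried muscle from control mice of the same strain. The labels name no allele, transgene or drug in either group, and they give neither age nor sex. They do not say whether control mice kept their food and bedding. If they did, cold and the lack of food or bedding cannot be told apart. Nor do the labels say that the replicates of a group are separate mice, and the p-values below then rest only on how far these samples lie apart, which can be technical.

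Muscle in the cold produces heat by shivering, which draws on glycogen, blood glucose and fatty acids. When food is lacking or glucocorticoid hormones rise, muscle turns from glucose to fat: Pdk4 is induced and shuts the pyruvate dehydrogenase step, and the forkhead factor Foxo1 raises genes that slow growth and break down protein. The glucocorticoid receptor acts by binding a palindromic DNA element near genes such as Fkbp5, Per1 and the metallothioneins. Growth hormone and cytokines act on muscle through STAT factors, which also switch on their own feedback inhibitors of the Cish and Socs family.

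Levels below are log2 values of the background-corrected and normalized intensity, and a log2 fold change is the cold mean minus the room-temperature mean, with its standard error (SE). A gene rose or fell where limma's adjusted p, over all 9963 genes tested, was under 0.05. Over all of them 182 rose (1.83%) and 237 fell (2.38%), which makes 419 in either direction (4.21%). A level cannot separate fewer cells of a type from less RNA per cell, since whole tissue was measured.

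The muscle arrays carried muscle RNA. Of the 24607 probes on an array, 10926 and 10852 were above background on the cold arrays and 10802 and 10618 on the room-temperature arrays. The 14 measured markers of skeletal muscle, such as the skeletal actin Acta1 and the creatine kinase Ckm, were detected on every muscle array. Their summed intensity was 284834 and 267442 in the cold, against 290762 and 283391 at room temperature. Acta1 read 14.78 and 14.83 in the cold, against 14.82 and 14.68 at room temperature.

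The cold replicates stood apart from each other in markers of another tissue and of a fibre type. Summed over 16 measured brown fat markers, intensity was 5784 and 53365 on cold replicates 1 and 2, against 2033 and 2628 at room temperature. On replicate 2 that sum amounted to 48.0% of the mean of brown fat at room temperature, and on replicate 1 to 5.20%, against 1.83% and 2.36% for the control muscles. All 16 markers were detected on cold replicate 2 and 10 of them on cold replicate 1, against 9 and 10 at room temperature. The uncoupling protein Ucp1, which defines brown fat, read 9.16 and 14.45 in the cold, against 6.18 and 5.93 at room temperature. The adipocyte protein Cidea read 7.14 and 13.10 in the cold, against 5.81 and 5.89. None of the 16 markers passed the test with all arrays. Without cold replicate 1, 14 were higher, where 4.58% of all genes were, and without cold replicate 2, 4 were higher, where 1.00% of all genes were.

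Markers of slow muscle fibres ran the other way. Their summed intensity over 8 genes was 9632 and 951.0 in the cold, against 2604 and 2937 at room temperature, so that the cold arrays lay at 347.6% and 34.3% of the room-temperature mean. The slow myosin light chain Myl3 read 11.55 and 7.32 in the cold, against 8.005 and 8.67 at room temperature. Myl2, another light chain of slow and cardiac muscle, read 11.03 and 6.26 in the cold, against 8.93 and 8.24. The room-temperature values of both genes lay between those of the cold replicates. None of the 8 genes passed the test.

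Other cell types moved less. The blood list, with haemoglobin genes and the red cell enzyme Alas2, summed to 17465 and 13774 in the cold, against 11851 and 10746 at room temperature. In 4 of its 5 genes both cold values exceeded both room-temperature values, which holds for 23.7% of all genes tested. Macrophage markers summed to 1804 and 1641 in the cold, against 1370 and 1463, over 8 genes. White fat markers summed to 2723 and 4439 in the cold, against 2423 and 2855, over 7 genes. None of these 20 genes passed the test; Lep, which encodes leptin of white fat, read 6.69 and 6.14 in the cold, against 7.24 and 8.09 (adjusted p = 0.0686). Endothelial markers summed to 9437 and 10646 in the cold, against 11979 and 11284 at room temperature, over 12 genes. Of 8 lymphocyte markers 5 were on the array, and none of these was bright enough to be tested. Of 6 satellite cell markers only Vcam1 was, with 7.49 and 8.42 in the cold, against 7.98 and 7.99. The part of these cell types in the results below was not tested.

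**Figure D1:**
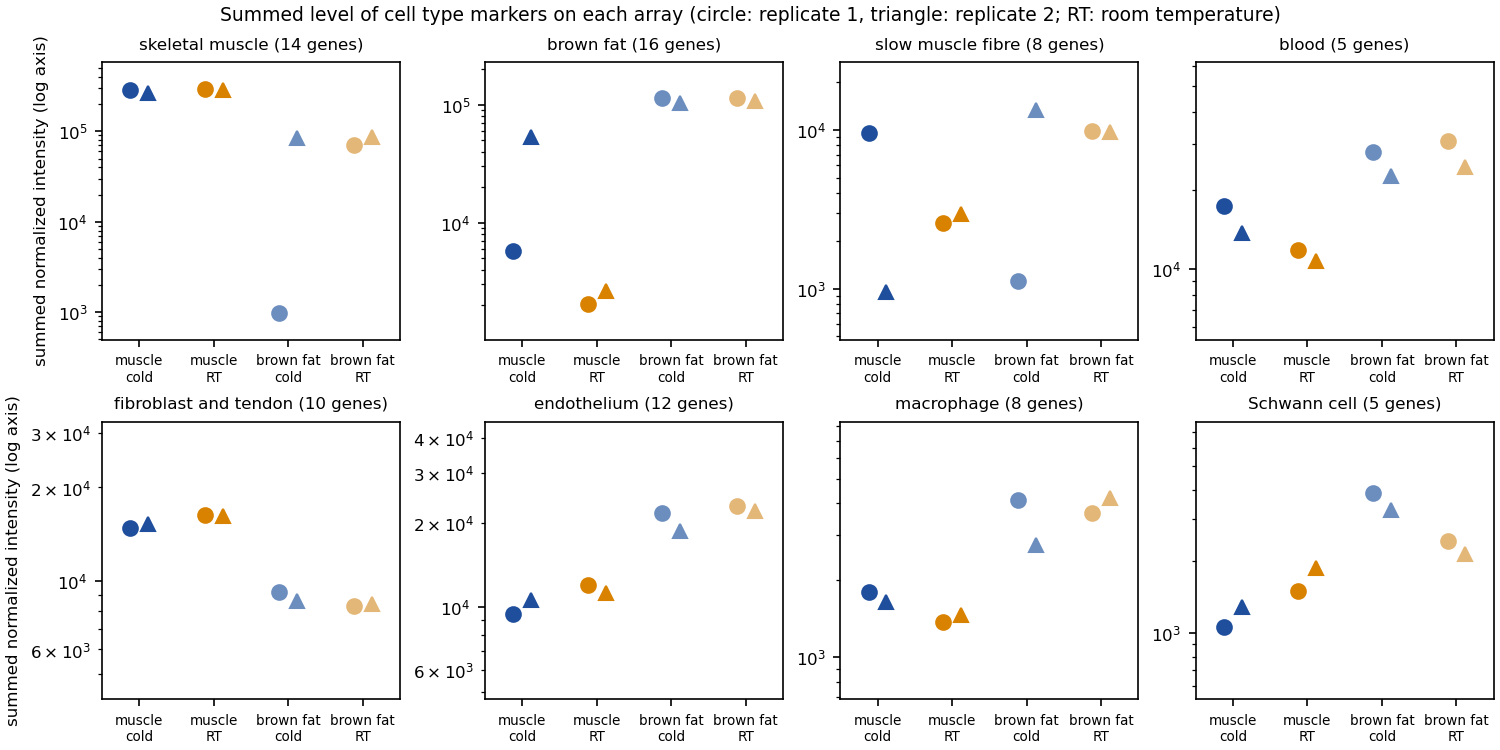
Summed normalized intensity (log axis) of 8 marker lists on each of the 8 arrays, with muscle in the cold at the left of muscle at room temperature and brown fat at the right; circles are replicate 1 and triangles replicate 2. The 14 muscle markers lie together on all muscle arrays, while the brown fat markers reach 53365 on cold muscle replicate 2 and the slow fibre markers 9632 on cold muscle replicate 1.

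Of the 419 calls 43.4% were rises. When arrays were scaled to a common median instead of being quantile normalized, 48 rose (0.482%) and 32 fell (0.321%), and 60.0% of the calls were rises. The rises were often larger: 86 of the 182 were beyond a doubling, against 44 of the 237 falls beyond a halving. Without cold replicate 2, the array with brown fat transcripts, 102 of 10172 genes rose (1.00%) and 60 fell (0.590%). Without cold replicate 1 the counts were 460 (4.58%) and 243 (2.42%). Without room-temperature replicate 1 they were 40 and 44, and without replicate 2 they were 26 and 19. Leaving out a room-temperature array of brown fat, which the fit uses for its estimate of spread, gave 92 and 106 without replicate 1 and 90 and 107 without replicate 2.

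Named genes kept their direction without cold replicate 2 in every case, 152 of 152 that rose and 210 of 210 that fell, while 70 and 44 of them kept the call. Those genes were called in a fit that already held the remaining arrays, so a turn of direction was hardly possible and its absence adds no support. The 2 cold arrays differed by more than 1 log2 unit in 307 genes, against 20 for the room-temperature pair. Of those 307, 256 were brighter on replicate 2, and for 239 of the 256 every brown fat array was brighter than both room-temperature muscle arrays. Among the 182 risen genes, 91 belong to that class of genes brighter in brown fat, which makes up 35.5% of all genes tested. Another 50 belong to the class dimmer on every brown fat array than on both room-temperature muscle arrays, which makes up 36.1%. Of the 237 fallen genes, 148 belong to that dimmer class and 23 to the brighter one. The part of brown fat in these shares was not tested. In 93 of the 182 both cold muscle arrays exceeded all 6 other arrays, brown fat included, which holds for 8.40% of all genes. Among the 237 fallen genes, 84 lay below all 6 other arrays on both cold muscle arrays, which holds for 10.1% of all genes. Called genes nearly always have both cold values beyond both room-temperature muscle values, so the counts of 93 and 84 are in part given by the call.

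**Figure D2:**
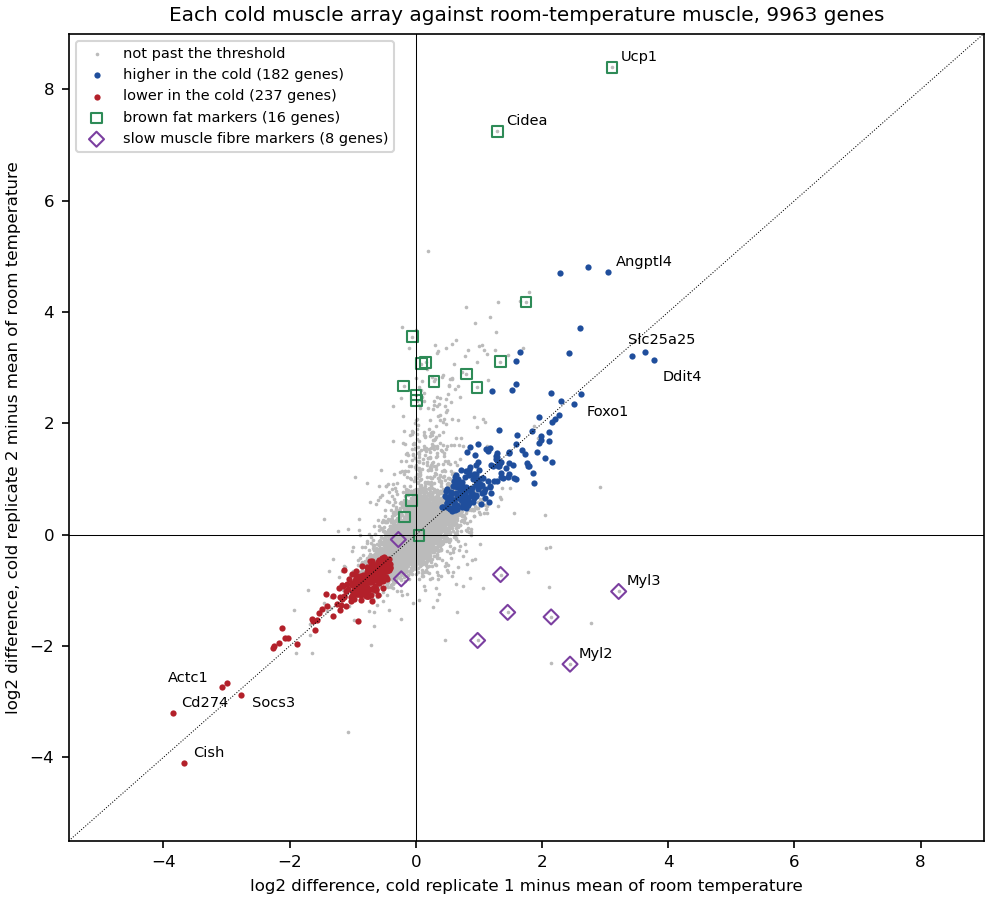
Log2 difference of each gene from the mean of room-temperature muscle, on cold replicate 1 (horizontal) and cold replicate 2 (vertical), for 9963 genes. Most of the 182 risen and 237 fallen genes lie near the diagonal, while a few risen genes such as Angptl4 (3.04 and 4.72) lie well above it; of the 16 brown fat markers all but Zic1 lie above it, with Ucp1 at 3.11 and 8.39, and slow fibre markers such as Myl3 and Myl2 lie below it.

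A set of 32 named genes passed the test with all arrays and again in each of the 8 fits that left out 1 array, 23 higher and 9 lower. The risen ones were Ddit4, Slc25a25, Ucp3, Foxo1, Mt1, Arrdc2, Zbtb16, Noct, Zfp36, Pdk4, Map3k6, Ccl9, Sik1, Rgcc, Cebpb, Slc25a30, Myo5a, Dnase1, Per1, Phlda1, Mt2, Nudt18 and Acacb. The fallen ones were Socs3, Col1a1, Dusp10, Tap2, Tnfaip2, Sox10, Ccn5, Cygb and Cercam. Every other called gene named below did not keep its call in at least 1 of the fits without a muscle array.

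The rise with the widest gap to all other arrays was that of Slc25a25, a carrier of ATP and magnesium across the inner mitochondrial membrane. It read 11.43 and 11.21 in the cold, against 7.71 and 8.29 at room temperature, while the brightest brown fat array read 7.21. The cold muscles lay apart from all other samples, and the log2 fold change was 3.31 (SE 0.20, adjusted p = 0.00123). Arrdc2, an alpha-arrestin, read 8.90 and 8.76 in the cold, against 6.72 and 6.65, and was also brighter there than on all 6 other arrays (2.14, SE 0.11, adjusted p = 0.00121). Its relative Arrdc3 read 10.97 and 10.12 in the cold, against 8.72 and 8.90 (1.73, SE 0.32, adjusted p = 0.0349). Dnase1, an enzyme that cuts DNA, read 7.70 and 7.67 in the cold, against 6.55 and 6.17 (1.33, SE 0.14), while its second probe gave 0.51 (adjusted p = 0.0577).

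**Figure D3:**
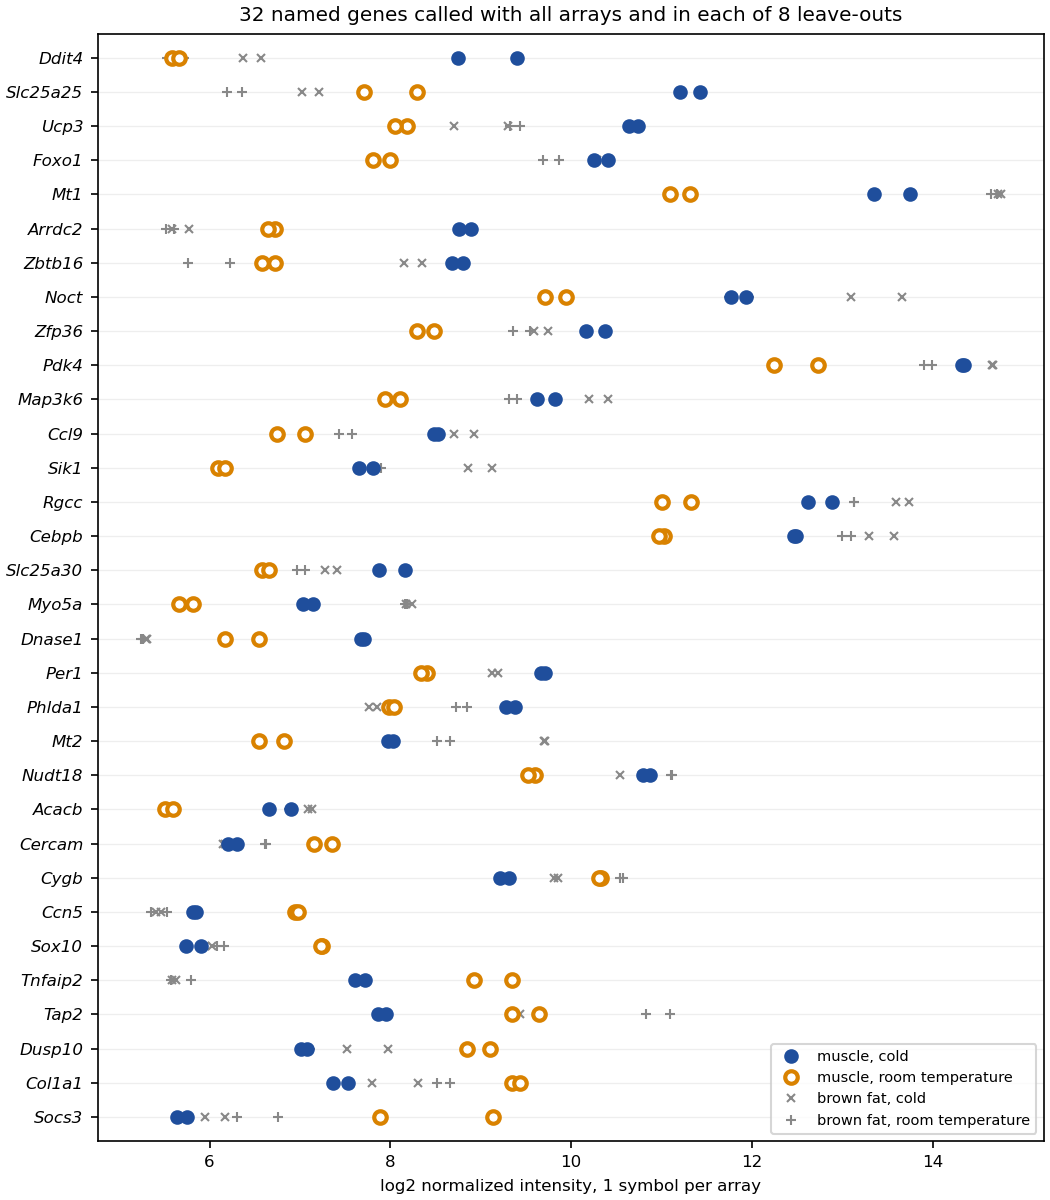
Log2 normalized intensity of the 32 genes that kept their call in each of the 8 leave-outs, with 1 symbol per array: filled circles for muscle in the cold, open circles for muscle at room temperature, crosses and plus signs for brown fat. In each gene both cold muscle arrays lie on the same side of both room-temperature muscle arrays, and for genes such as Slc25a25 and Arrdc2 they also lie above every brown fat array.

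The list of the glucocorticoid receptor and its targets held the largest number of risen genes among the lists examined. The lists were chosen with earlier results of these data known, so this rank and the counts below describe the data and are no test. Of 25 listed genes 22 were tested, 13 rose and 0 fell, while 1.83% of all genes rose. The list's median log2 fold change was 1.17, against -0.02 over all genes. In 21 of the 22 both cold values exceeded both room-temperature values, against 23.7% of all genes tested. Without cold replicate 2 the counts were again 13 and 0, with a median of 1.24, and in the fit of the 4 muscle arrays alone 12 rose and 0 fell. The count was 8 without room-temperature replicate 1 and 7 without replicate 2.

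Mt1 and Mt2 encode metallothioneins, small proteins that bind zinc and copper. Mt1 read 13.35 and 13.75 in the cold, against 11.09 and 11.32 at room temperature, a 5.08-fold rise (2.34, SE 0.15, adjusted p = 0.00196). Mt2 read 8.03 and 7.97 in the cold, against 6.83 and 6.55 (1.31, SE 0.12, adjusted p = 0.00432). Brown fat exceeded both cold muscle arrays in both genes. Map3k6, a kinase of the stress-activated MAP kinase cascades, read 9.63 and 9.83 in the cold, against 8.11 and 7.95 (1.70, SE 0.13, adjusted p = 0.00246). The promoters of Mt1 and Map3k6 are shown because each holds a full match to the receptor's element, and because both genes kept their call in every leave-out. Each sequence runs 5′ to 3′ on the gene's strand from 250 bases before to 50 bases after the gene's start, from RefSeq (GRCm38.p6), with the match in capitals. Mt1 lies at chr8:94178839-94179138 on the plus strand, and Map3k6 at chr4:133240568-133240867 on the plus strand.
Mt1 promoter: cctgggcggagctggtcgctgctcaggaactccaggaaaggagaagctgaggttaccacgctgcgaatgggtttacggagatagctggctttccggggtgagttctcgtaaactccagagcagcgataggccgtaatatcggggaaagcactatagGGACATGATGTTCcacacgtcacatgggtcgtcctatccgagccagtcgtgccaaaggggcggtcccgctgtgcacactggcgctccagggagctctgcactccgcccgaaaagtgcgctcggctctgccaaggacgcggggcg
Map3k6 promoter: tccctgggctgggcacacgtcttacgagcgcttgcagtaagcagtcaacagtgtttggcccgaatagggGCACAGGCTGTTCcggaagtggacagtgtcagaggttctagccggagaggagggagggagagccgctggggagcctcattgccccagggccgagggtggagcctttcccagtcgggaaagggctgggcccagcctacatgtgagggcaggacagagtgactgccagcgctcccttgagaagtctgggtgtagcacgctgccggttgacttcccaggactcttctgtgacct

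The element searched has the half-sites GNACA and TGTNC with 3 bases of any kind between them. It reads the same on both strands, and the search was of letters only. It occurred in 7 of 160 promoters (4.38%) of the risen named genes that have a promoter in the table, and in 0 of 212 promoters of the fallen ones, against 0.475% of all 32851 promoters. The 7 promoters belong to 6 genes, since Fam107a has overlapping promoters that share a single match. Of the 20 members of the receptor's list with a promoter in the table, 4 held the element, namely Fam107a, Map3k6, Mt1 and Sgk1, of which Sgk1 was not called. The promoters of Fkbp5, Per1, Mt2, Tsc22d3, Cebpb and Glul held none. Besides Mt1 and Map3k6 the 6 risen genes were Fam107a, an actin-associated protein induced by glucocorticoids, Serpina3n, a protease inhibitor, the steroid sulfate transporter Slc10a6 and the amylase gene Amy1. Windows of 10 bases on each side of those matches are given to show the bases within and around them. The matches are alike because the search fixed their letters, and the windows were chosen after the values were seen.
Fam107a, chr14:8309875-8309907, minus strand: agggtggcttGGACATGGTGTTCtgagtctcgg
Serpina3n, chr12:104406620-104406652, plus strand: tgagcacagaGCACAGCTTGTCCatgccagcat
Slc10a6, chr5:103629544-103629576, minus strand: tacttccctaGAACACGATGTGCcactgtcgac
Amy1, chr3:113577944-113577976, minus strand: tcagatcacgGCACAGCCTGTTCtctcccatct
Fam107a read 7.93 and 7.50 in the cold, against 5.97 and 6.04 at room temperature (1.71, SE 0.16, adjusted p = 0.00467). The fold changes of Serpina3n, Slc10a6 and Amy1 lay between 1.04 and 1.11 on the log2 scale, with adjusted p between 0.0316 and 0.0429. In each of these 4 genes both cold values lay above both room-temperature values. That holds for 23.7% of all genes tested and is nearly given for genes picked among the called rises.

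Within the receptor's list, Fkbp5, a chaperone partner that dampens the receptor, read 10.28 and 9.85 in the cold, against 8.41 and 7.93 at room temperature (1.90, SE 0.27, adjusted p = 0.0181). Tsc22d3, the leucine zipper protein induced by glucocorticoids, read 9.97 and 9.42 in the cold, against 8.14 and 8.26 (1.50, SE 0.21, adjusted p = 0.0172). In both genes the cold muscles were brighter than every other array. Cebpb, a transcription factor of the acute response, read 12.47 and 12.49 in the cold, against 11.03 and 10.97 (1.48, SE 0.12, adjusted p = 0.00297). Glul, the glutamine synthetase, read 8.99 and 8.80 in the cold, against 7.29 and 7.75 (1.38, SE 0.20, adjusted p = 0.0181). Klf15, a factor of amino acid and fat use in muscle, and the phosphatase Dusp1 rose by 0.98 and 1.03 log2 units. Zbtb16, the zinc finger factor of the series title, rose by 2.09 and kept its call in each of the 18 alternatives in which it was tested. The 9 members that did not pass included the kinase gene Sgk1 (0.64, adjusted p = 0.0642) and Hif3a, the only member with both cold values below both room-temperature values (-0.34, adjusted p = 0.167).

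**Figure D4:**
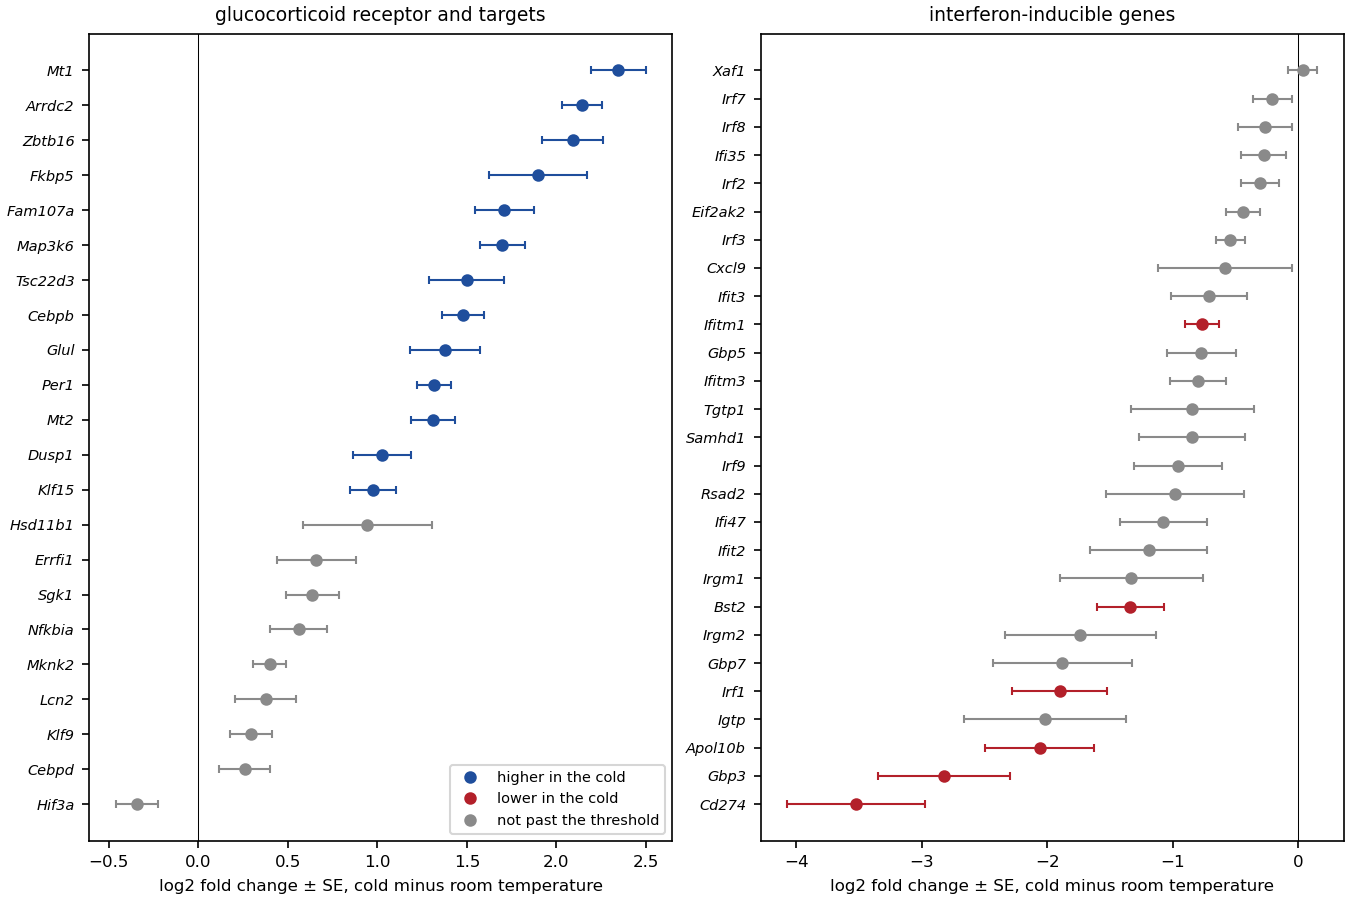
Log2 fold change, cold minus room temperature, with its standard error, for the 22 tested genes of the glucocorticoid receptor list (left) and the 27 tested interferon-inducible genes (right); blue marks genes that rose, red genes that fell and grey those that did not pass. All but 1 of the receptor's targets lie above 0, and all but 1 of the listed interferon-inducible genes lie below it. Ifi27l2a, which rose, is not on that list.

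Of 10 tested genes in the list of FoxO factors and genes they induce, 6 rose, 0 fell, 4 did not pass, and the median was 1.29. Of all genes 1.83% rose. Without cold replicate 2 the count was 5, and it was 4 and 3 without room-temperature replicates 1 and 2. Foxo1 itself read 10.41 and 10.26 in the cold, against 8.002 and 7.81 at room temperature, a 5.39-fold rise (2.43, SE 0.12, adjusted p = 0.00121). Ddit4, which inhibits the growth kinase complex mTORC1, read 9.40 and 8.75 in the cold, against 5.58 and 5.66, and was above background on no control muscle array. It was at least 10.3-fold higher in the cold (adjusted p = 0.00123), and no brown fat array came within 2 log2 units of the cold muscles. Depp1, a forkhead target tied to autophagy, read 11.42 and 11.07 in the cold, against 7.66 and 7.93 (3.45, SE 0.41, adjusted p = 0.00982). The cell cycle inhibitor Cdkn1a read 9.78 and 10.34 in the cold, against 8.88 and 8.03 (1.60, SE 0.31, adjusted p = 0.0385). Its call was lost without cold replicate 2 (1.31, adjusted p = 0.131), and its second probe did not pass (1.31, adjusted p = 0.0927).

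Genes of protein breakdown were less clear. Of 24 tested ubiquitin ligases and autophagy genes, Gabarapl1, which builds autophagosomes, rose (0.97, SE 0.17, adjusted p = 0.0307), and none fell. The count was 0 without any 1 of cold replicate 2, the room-temperature arrays of muscle or those of brown fat, and 4 without either cold brown fat array. The 2 muscle-specific ligases that mark atrophy were looked at after their values were seen. Fbxo32 read 12.14 and 11.95 in the cold, against 10.62 and 9.80 at room temperature, a log2 fold change of 1.84 that missed the threshold (SE 0.47, adjusted p = 0.0805). Trim63 read 10.70 and 10.78 in the cold, against 9.22 and 8.44 (1.91, SE 0.46, adjusted p = 0.0702; 0.0498 with the muscle arrays alone). In both ligases the cold values lay above the room-temperature values, and the room-temperature arrays lay further apart than the cold arrays. None of 33 proteasome subunits passed, with values between -0.17 and 0.33.

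Growth signalling changed at a few points. Among 20 tested genes of insulin, IGF and mTORC1 signalling, Ddit4 and Rictor rose and Pik3r3 fell. Rictor, a subunit of the second mTOR complex, read 9.73 and 9.80 in the cold, against 9.29 and 9.17 at room temperature (0.54, SE 0.11, adjusted p = 0.0488). Pik3r3, a regulatory subunit of the insulin-activated lipid kinase, read 7.51 and 7.48 in the cold, against 8.23 and 8.07 (-0.66, SE 0.10, adjusted p = 0.0232). Outside these lists Acvr2b, the receptor for myostatin and activins, was among the 12 largest falls. It read 9.74 and 9.62 in the cold, against 11.28 and 11.39 at room temperature (-1.66, SE 0.18, adjusted p = 0.00702).

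Fuel genes changed at single steps rather than along whole pathways. Pdk4, the kinase that switches off pyruvate dehydrogenase, read 14.33 and 14.35 in the cold, against 12.73 and 12.24 at room temperature, a 3.61-fold rise (1.85, SE 0.16, adjusted p = 0.00391). It was the only one of 11 tested genes of pyruvate dehydrogenase and its regulators that passed. None of 18 tested genes of glucose uptake and glycolysis passed. The largest value there was that of Pfkl, the phosphofructokinase of liver type, with 8.65 and 11.17 in the cold, against 8.64 and 8.49 at room temperature. Only cold replicate 2 was high, the array on which brown fat transcripts are bright, and Pfkl read above 14 on every brown fat array. Pfkfb3, which makes the activator of phosphofructokinase, read 10.74 and 12.03 in the cold, against 11.99 and 11.95, and fell only in the fit without cold replicate 2 (-1.23, adjusted p = 0.0225). Ppp1r3c, which tethers a phosphatase to glycogen and favours its synthesis, was the only one of 17 glycogen genes to rise, with 14.84 and 14.85 in the cold, against 13.67 and 13.56 (adjusted p = 0.0226). The cold values lie near the highest level on an array, 15.03, where differences can be compressed, and the log2 fold change of 1.23 (SE 0.19) may understate the rise. Its call was lost without cold replicate 2 (adjusted p = 0.0705), where its value was 1.24.

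In fat use, the mitochondrial uncoupling protein of muscle, Ucp3, read 10.74 and 10.64 in the cold, against 8.18 and 8.06 at room temperature, a 5.94-fold rise (2.57, SE 0.19, adjusted p = 0.00227). A second probe of the gene gave 2.68 (adjusted p = 0.00489), and both cold muscles were above every brown fat array. Acacb, the acetyl-CoA carboxylase whose product holds fatty acids out of mitochondria, read 6.90 and 6.66 in the cold, against 5.51 and 5.59, where it was not above background, and was at least 2.09-fold higher. These were the only risen genes among 23 of fatty acid oxidation, and none fell. Slc25a30, another mitochondrial carrier, read 8.16 and 7.87 in the cold, against 6.58 and 6.65 (1.40, SE 0.13, adjusted p = 0.00403). With Slc25a25 and Ucp3 it made 3 risen genes among 24 carriers, a count that was 7 without cold replicate 1.

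Among 24 genes of fatty acid uptake, storage and lipolysis, 3 rose and 0 fell, while 1.83% of all genes rose. Angptl4, which inhibits lipoprotein lipase, read 9.64 and 11.32 in the cold, against 6.38 and 6.82 at room temperature (3.88, SE 0.49, adjusted p = 0.0129). Without cold replicate 2 its value was 3.03 (adjusted p = 0.00711), and a second probe gave 1.16 with all arrays (adjusted p = 0.0751). Plin4, a coat protein of lipid droplets, read 13.61 and 14.03 in the cold, against 12.52 and 12.46 (1.32, SE 0.14, adjusted p = 0.00715). Lpin1, a phosphatidate phosphatase, read 6.55 and 6.71 in the cold, against 5.93 and 5.70, of which only 1 was above background (0.81, SE 0.15, adjusted p = 0.0365), while its second probe gave 0.30 (adjusted p = 0.199). This list leaned on cold replicate 2: its median was 0.84 without cold replicate 1, 0.49 with all arrays and 0.31 without cold replicate 2. The part of the brown fat transcripts in it was not tested.

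Several of the other large rises were in genes that brown fat expresses strongly. Tmem45b, a membrane protein, read 10.59 and 12.67 in the cold, against 7.09 and 8.64 at room temperature, and Arxes2, an adipocyte protein, read 9.61 and 12.03 in the cold, against 7.11 and 7.54. Ifi27l2a, an interferon-inducible mitochondrial protein, read 11.55 and 13.09 in the cold, against 9.79 and 10.14. In all 3 genes cold replicate 2 was the brighter one by more than 1 log2 unit, and brown fat was brighter than both room-temperature muscles. Without cold replicate 2 the value of Tmem45b was 2.72 (adjusted p = 0.102), that of Arxes2 2.27 (0.00711) and that of Ifi27l2a 1.58 (0.0146). Rbp7, a retinol-binding protein, read 8.04 and 9.15 in the cold, against 5.42 and 5.46, where it was not above background, and was at least 7.37-fold higher. Irf4, a transcription factor of immune cells and fat, read 8.14 and 8.98 in the cold, against 5.68 and 5.73 (2.85, SE 0.29, adjusted p = 0.00587), and was above background on 1 of the control muscle arrays. The part of brown fat in these 5 rises was not tested. Brown fat markers also summed higher on cold replicate 1 than on the controls, so the fit without replicate 2 does not remove it.

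The coactivators of mitochondrial biogenesis showed little. Of 19 PGC-1 coactivators and nuclear receptors, Nrip1, a corepressor of oxidative genes, rose (0.75, SE 0.15, adjusted p = 0.0447), with 6.61 and 6.29 in the cold, against 5.54 and 5.86, of which 1 was above background. It lost the call in 15 of the 18 alternatives that tested it. Of 47 tested subunits of the respiratory chain and ATP synthase 0 passed with all arrays, and the list's median was -0.01. The largest value, 1.17 for Cox6a1, came from cold replicate 2, with 10.67 and 12.89 in the cold, against 10.52 and 10.69. Without that array it was 0.06.

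Genes of the early and cyclic AMP response rose in part. Among 19 tested immediate early genes and NR4A receptors, 6 rose and 0 fell, while 1.83% of all genes rose. The 6 were Crem, Dusp1, Jun, Klf4, Nr4a1 and Zfp36, and the list's median was 0.55. The count was 5 without cold replicate 2 and 1 without either room-temperature muscle array. Zfp36, which speeds the decay of cytokine mRNAs, read 10.37 and 10.16 in the cold, against 8.49 and 8.30 at room temperature (1.87, SE 0.13, adjusted p = 0.00224). Nr4a1, an orphan receptor induced by exercise, read 6.78 and 6.42 in the cold, against 5.30 and 5.51, where it was not above background, and was at least 1.85-fold higher. Jun read 9.77 and 9.59 in the cold, against 8.64 and 8.62 (1.06, SE 0.19, adjusted p = 0.0328). Fos, named after its values were seen as Jun's partner, was high on 1 cold array only, with 9.20 and 6.90 in the cold, against 7.40 and 6.89.

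Among 21 tested genes of adrenergic and cAMP signalling, 6 rose and 0 fell, while 1.83% of all genes rose. The 6 were Crem, Sik1 and Prkar2a and the phosphodiesterases Pde4d, Pde7a and Pde8a. The count was 3 without cold replicate 2, 2 without either room-temperature muscle array and 3 without either room-temperature brown fat array. Sik1, a kinase induced by cAMP, read 7.81 and 7.65 in the cold, against 6.09 and 6.17 at room temperature (1.60, SE 0.14, adjusted p = 0.00384). Pde4d, which degrades cAMP, read 10.33 and 10.06 in the cold, against 8.33 and 8.10 (1.97, SE 0.20, adjusted p = 0.00587). Its other tested probe gave 0.29 (adjusted p = 0.318), so the rise rests on 1 of 2 probes. Pde7a read 9.67 and 9.29 in the cold, against 8.43 and 7.95, above all brown fat arrays as well (1.29, SE 0.27, adjusted p = 0.047), and its second probe gave 1.06 (adjusted p = 0.0661).

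Transport of amino acids and defence against oxidants also held risen genes. Of 24 genes of amino acid and polyamine metabolism, Glul, Slc38a2 and Slc7a8 rose and none fell, while 1.83% of all genes rose. Slc38a2, a sodium-coupled transporter of neutral amino acids, read 11.89 and 11.85 in the cold, against 10.94 and 11.06 at room temperature (0.87, SE 0.18, adjusted p = 0.0444), and a second probe gave 1.11 (adjusted p = 0.024). Slc7a8, a transporter of large neutral amino acids, read 9.61 and 9.60 in the cold, against 8.16 and 8.10 (1.48, SE 0.24), while its second probe gave 0.21 (adjusted p = 0.353). The list's count was 1 without cold replicate 2 and 0 without either room-temperature muscle array. Of 26 antioxidant genes and metallothioneins, Mt1, Mt2, Gsta3 and Srxn1 rose, and the glutathione transferases Gstm1 and Gstm2 fell; these 2 belong to a family of near-identical genes, and their probes may share signal. Srxn1, the sulfiredoxin, read 11.01 and 10.54 in the cold, against 9.26 and 9.22 (1.53, SE 0.16, adjusted p = 0.00634). Gsta3, another glutathione transferase, read 8.77 and 9.84 in the cold, against 7.13 and 7.35, and brown fat was brighter than both controls in it.

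Other genes that kept their call in every leave-out stand outside the lists. Noct, a rhythmic phosphatase, read 11.77 and 11.93 in the cold, against 9.71 and 9.95 at room temperature (2.03, SE 0.20, adjusted p = 0.00538), and a second probe gave 2.09. The chemokine Ccl9 read 8.48 and 8.53 in the cold, against 7.05 and 6.74 (1.61, SE 0.14). Rgcc, a regulator of the cell cycle, read 12.89 and 12.63 in the cold, against 11.33 and 11.01 (1.59, SE 0.15). In these 3 genes the cold replicates lay close together and over 1 log2 unit above both controls. The motor protein Myo5a, Phlda1 and the hydrolase Nudt18 rose by 1.35, 1.31 and 1.28 log2 units, with SE between 0.10 and 0.11. The adaptor Traf2 read 8.004 and 8.03 in the cold, against 6.80 and 6.61, and was brighter in the cold muscles than on every other array (1.32, SE 0.20, adjusted p = 0.0226).

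The largest fall was that of Cish, a feedback inhibitor of growth hormone and cytokine signalling. Of 28 tested genes of that signalling, Cish, Socs2 and Socs3 fell and Pim3 rose. Cish, which growth hormone induces, read 8.18 and 7.75 in the cold, against 11.31 and 12.39 at room temperature, a level 14.8-fold lower (-3.88, SE 0.54, adjusted p = 0.0169). Both cold muscles were below every other array. Socs3, which blocks cytokine receptors, read 5.75 and 5.64 in the cold, with 1 array above background, against 7.89 and 9.14 (-2.82, SE 0.37, adjusted p = 0.0142). Socs2, which tempers growth hormone action, read 8.41 and 8.62 in the cold, against 9.99 and 10.98 (-1.97, SE 0.35, adjusted p = 0.0317). The room-temperature replicates of these genes differed by about 1 log2 unit, and in each of them replicate 2 was the higher. The fall of Cish lost its call without cold replicate 2 (adjusted p = 0.0606) and that of Socs2 did too (0.0827). Without room-temperature replicate 2, 1 of the list's falls was left.

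The promoters of Cish and Socs3 hold the palindrome TTCNNNGAA that STAT factors bind, shown here with 10 bases on each side because these STAT-driven inhibitors had the largest falls of the list. The windows were picked after the values were known.
Cish, chr9:107296649-107296688, plus strand: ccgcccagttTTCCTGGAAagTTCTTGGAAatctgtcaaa
Socs3, chr11:117969502-117969530, minus strand: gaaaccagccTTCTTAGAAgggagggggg
Cish has 2 matches, 2 bases apart, and Socs3 has 1. The palindrome is short and common. It occurred in 9.91% of the promoters of fallen genes and 7.5% of those of risen genes, against 8.3% of all promoters. The forkhead letters TGTTTAC were in 3 of 160 promoters of risen genes and 11 of 212 promoters of fallen genes, against 3.65% of all promoters. The E-box CACGTG, which clock factors bind, was in 13 and 14, against 7.15%.

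Pim3, a kinase gene that cytokines induce, moved the other way from the Socs genes. It read 11.18 and 11.43 in the cold, against 10.34 and 10.32 at room temperature (0.97, SE 0.13, adjusted p = 0.0169), and lost the call without cold replicate 2 (adjusted p = 0.0606). Dusp10, the phosphatase of the stress kinases p38 and JNK, read 7.08 and 7.01 in the cold, against 8.85 and 9.10 (-1.93, SE 0.16, adjusted p = 0.00384), and a second probe gave -1.18 (adjusted p = 0.00727). Tnfaip2, which tumour necrosis factor induces, read 7.60 and 7.73 in the cold, against 8.93 and 9.35 (-1.47, SE 0.16, adjusted p = 0.00702).

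Of 27 tested genes on the list of interferon-inducible genes 6 fell, 0 rose and 21 did not pass, and the median was -0.85. Of all genes 2.38% fell. The list leaves out Ifi27l2a, named above as interferon-inducible, which rose (2.35, SE 0.43, adjusted p = 0.0349) and was brighter on cold replicate 2. Both cold values lay below both room-temperature values in 25 of the 27, against 30.8% of all genes tested. Cd274, the checkpoint ligand PD-L1, read 6.70 and 7.35 in the cold, against 10.88 and 10.22 at room temperature, a level 11.5-fold lower (-3.53, SE 0.55, adjusted p = 0.0232). Gbp3, a guanylate-binding protein, read 7.36 and 7.69 in the cold, against 10.63 and 10.06 (-2.82, SE 0.52, adjusted p = 0.0361). Apol10b, an apolipoprotein L, read 6.12 and 6.34 in the cold, against 8.56 and 8.02 (-2.06, SE 0.43, adjusted p = 0.0494). The transcription factor Irf1, which drives many of these genes, read 7.34 and 7.78 in the cold, against 9.76 and 9.17 (-1.90, SE 0.38, adjusted p = 0.0428); its 3 other probes gave -0.23, -0.29 and -1.31, with none past the threshold. Bst2, which tethers viruses to the cell surface, read 8.42 and 8.55 in the cold, against 10.20 and 9.45, and both cold muscles were below every other array.

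The number of interferon calls varied between fits, and the cause was not tested. It was 1 without cold replicate 2, 2 without cold replicate 1, 0 without either room-temperature muscle array, and 11 without either room-temperature brown fat array. In the fit of the 4 muscle arrays alone 10 of the genes fell, and with median scaling 0 did. For example the GTPase Igtp, named after its values were seen, had an SE of 0.65 with all arrays (-2.02, adjusted p = 0.141) and of 0.16 with the muscle arrays alone (-2.06, adjusted p = 0.0187). The list's median stayed between -1.04 and -0.66 in these 8 leave-outs.

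Of 21 tested genes of antigen presentation 2 fell and 0 rose, while 2.38% of all genes fell, and the list's median was -0.28. Tap2, a subunit of the peptide transporter, read 7.87 and 7.95 in the cold, against 9.65 and 9.35 at room temperature (-1.59, SE 0.14, adjusted p = 0.00402), and kept its call in every leave-out. Psmb8, a subunit of the immunoproteasome, read 5.83 and 5.98 in the cold, against 6.92 and 6.76 (-0.94, SE 0.16, adjusted p = 0.0317). Both genes were lower in the cold muscles than on all 6 other arrays.

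Clock genes moved in both directions. Of 15 tested, Per1 rose, and Dbp, Per3, Bhlhe40 and Bhlhe41 fell. Per1, a repressor of the clock that glucocorticoids and cAMP also induce, read 9.67 and 9.71 in the cold, against 8.41 and 8.34 at room temperature (1.31, SE 0.10, adjusted p = 0.00224). Per3, its relative, read 6.24 and 6.25 in the cold, against 7.49 and 7.50 (-1.25, SE 0.14, adjusted p = 0.0087). Dbp, an output factor of the clock, read 12.16 and 12.24 in the cold, against 13.24 and 13.27 (-1.06, SE 0.15, adjusted p = 0.0172). Bhlhe40, another repressor of the clock, read 10.44 and 10.14 in the cold, against 11.34 and 11.29 (-1.03, SE 0.12, adjusted p = 0.0107). In all 4 genes the replicates of a group lay much closer to each other than to the other group. Without either room-temperature muscle array Per1 alone passed. The labels do not give the hour at which each group's tissue was taken, so hour and cold cannot be told apart in these genes.

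Matrix genes fell at single points. Of 30 tested collagen and matrix genes 3 fell and 0 rose, with a median of -0.07, while 2.38% of all genes fell. Col1a1, the main collagen of tendon and fascia, read 7.36 and 7.53 in the cold, against 9.35 and 9.44 at room temperature, a level 3.85-fold lower (-1.95, SE 0.17, adjusted p = 0.00402). Tnc, the matrix protein tenascin C, read 6.24 and 6.39 in the cold, against 6.90 and 7.11 (-0.69, SE 0.11, adjusted p = 0.0254). Col6a1, of the collagen around muscle fibres, read 10.19 and 10.35 in the cold, against 10.83 and 10.94 (-0.62, SE 0.11, adjusted p = 0.0327), and a second probe gave -0.83 (adjusted p = 0.0331). Only Col1a1 of the 3 passed without cold replicate 2, without either room-temperature muscle array or without either room-temperature brown fat array.

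Fibroblast and tendon markers as a list summed to 14845 and 15253 in the cold, against 16327 and 16154 at room temperature, over 10 genes. Besides Col1a1, the tendon marker Tnmd fell (-0.94, SE 0.18, adjusted p = 0.0362), with 7.66 and 7.17 in the cold, against 8.50 and 8.21, while the skin and fascia protein Dpt rose (0.78, SE 0.16, adjusted p = 0.0428), with 9.16 and 9.53 against 8.50 and 8.62. Each of these 2 calls was lost without cold replicate 2. Ccn5, a secreted matrix protein, read 5.82 and 5.85 in the cold, against 6.95 and 6.98 (-1.13, SE 0.10, adjusted p = 0.00403). Cygb, a globin of fibroblasts, read 9.31 and 9.22 in the cold, against 10.33 and 10.31 (-1.05, SE 0.09, adjusted p = 0.00402), and Cercam fell by 1.00 log2 units (SE 0.11). These 3 falls were kept in every leave-out.

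A few markers of nerve sheath and vessel fell. Schwann cell markers summed to 1063 and 1286 in the cold, against 1502 and 1879 at room temperature, over 5 genes of which 2 fell. Sox10, the transcription factor that defines Schwann cells, read 5.74 and 5.90 in the cold, against 7.24 and 7.23 (-1.41, SE 0.10, adjusted p = 0.00224). Mbp, a myelin protein, read 8.03 and 8.003 in the cold, against 8.74 and 9.28 (-0.99, SE 0.20, adjusted p = 0.0428). The fall of Mbp was lost without cold replicate 2 (adjusted p = 0.134). Of the 12 endothelial markers, whose median was -0.11, only Vwf, the clotting factor carrier, fell, with 9.22 and 9.10 in the cold, against 9.81 and 9.84 (-0.66, SE 0.10, adjusted p = 0.0233). Of 19 tested angiogenesis genes 3 fell and 0 rose, and the list's median was 0.004. Aplnr, the apelin receptor of endothelial cells, read 5.85 and 5.86 in the cold, against 7.05 and 6.99 (-1.17, SE 0.11, adjusted p = 0.00467). Vegfc, a growth factor of lymphatic vessels, read 5.78 and 5.87 in the cold, against 6.66 and 6.63 (-0.82, SE 0.10, adjusted p = 0.00985). Esm1, an endothelial tip cell gene, was not above background on either cold array and was at least 1.58-fold lower. Whether fewer of these cells were in the cold samples was not tested.

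The contractile apparatus showed 1 large fall. Of 30 tested contractile genes Actc1, the cardiac actin that adult muscle expresses at low level, fell, with 10.34 and 10.69 in the cold, against 13.66 and 13.18 at room temperature, a level 7.48-fold lower (-2.90, SE 0.54, adjusted p = 0.0361). A second probe of Actc1 gave -3.08 (SE 0.21, adjusted p = 0.00224). The call of the first probe was lost without cold replicate 2 (adjusted p = 0.0977), where its value was -3.09. The brown fat arrays, which the fit uses for its estimate of spread, differed in muscle transcripts. Muscle markers summed to 990.3 on cold brown fat replicate 1 and to between 70590 and 86093 on the other 3. The part of this in the errors was not tested and varied by gene. Myl3 had an SE of 1.59 with all arrays and of 1.40 with the muscle arrays alone, and Myh2 of 1.39 and 0.75. Acta1 had an SE of 2.03 with all arrays and of 0.11 with the muscle arrays alone, where its fold change was 0.05 and its adjusted p 0.803. In that fit Actc1 was again the only contractile gene past the threshold.

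Of 23 genes of calcium handling, Pln, which restrains the calcium pump of slow and cardiac muscle, fell, with 6.12 and 5.89 in the cold, against 6.72 and 6.74 at room temperature (-0.72, SE 0.13, adjusted p = 0.0317). Its call was lost without cold replicate 2 (adjusted p = 0.114), where its value was -0.62. Among 20 mechanical stress and myogenic genes, Hdac4, a repressor of muscle gene programmes, rose (0.92, SE 0.12, adjusted p = 0.0129), and Chrne, the adult subunit of the acetylcholine receptor, fell (-0.69, SE 0.12, adjusted p = 0.0324). Ccnd1, a cyclin of growing cells, read 7.90 and 7.99 in the cold, against 8.55 and 8.56 (-0.61, SE 0.10, adjusted p = 0.0304).

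No heat shock or cold-shock gene passed among 21 tested with all arrays. Hspb7, a small heat shock protein of muscle, had the largest value, 0.95, but its replicates overlapped, with 11.28 and 8.93 in the cold, against 9.76 and 8.56 at room temperature. Hsp90aa1, the inducible cytosolic chaperone, read 5.93 and 5.81 in the cold, against 5.24 and 5.25, where it was not above background (adjusted p = 0.144). Rbm3 and Cirbp, RNA-binding proteins known to rise when cells are cooled, were looked up after the values were seen. Rbm3 read 10.82 and 10.81 in the cold, against 11.26 and 10.77, and Cirbp 7.72 and 7.86 in the cold, against 7.95 and 7.92. Neither fold change, -0.20 (adjusted p = 0.676) and -0.14 (adjusted p = 0.667), passed. Of 16 factors that muscle secretes only Angptl4 passed. Among 21 genes of the integrated stress and unfolded protein responses 0 passed, and the largest value, 1.63 for the asparagine synthetase Asns, came from cold replicate 2, with 6.30 and 8.30 in the cold, against 5.53 and 5.82.

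**Figure D5:**
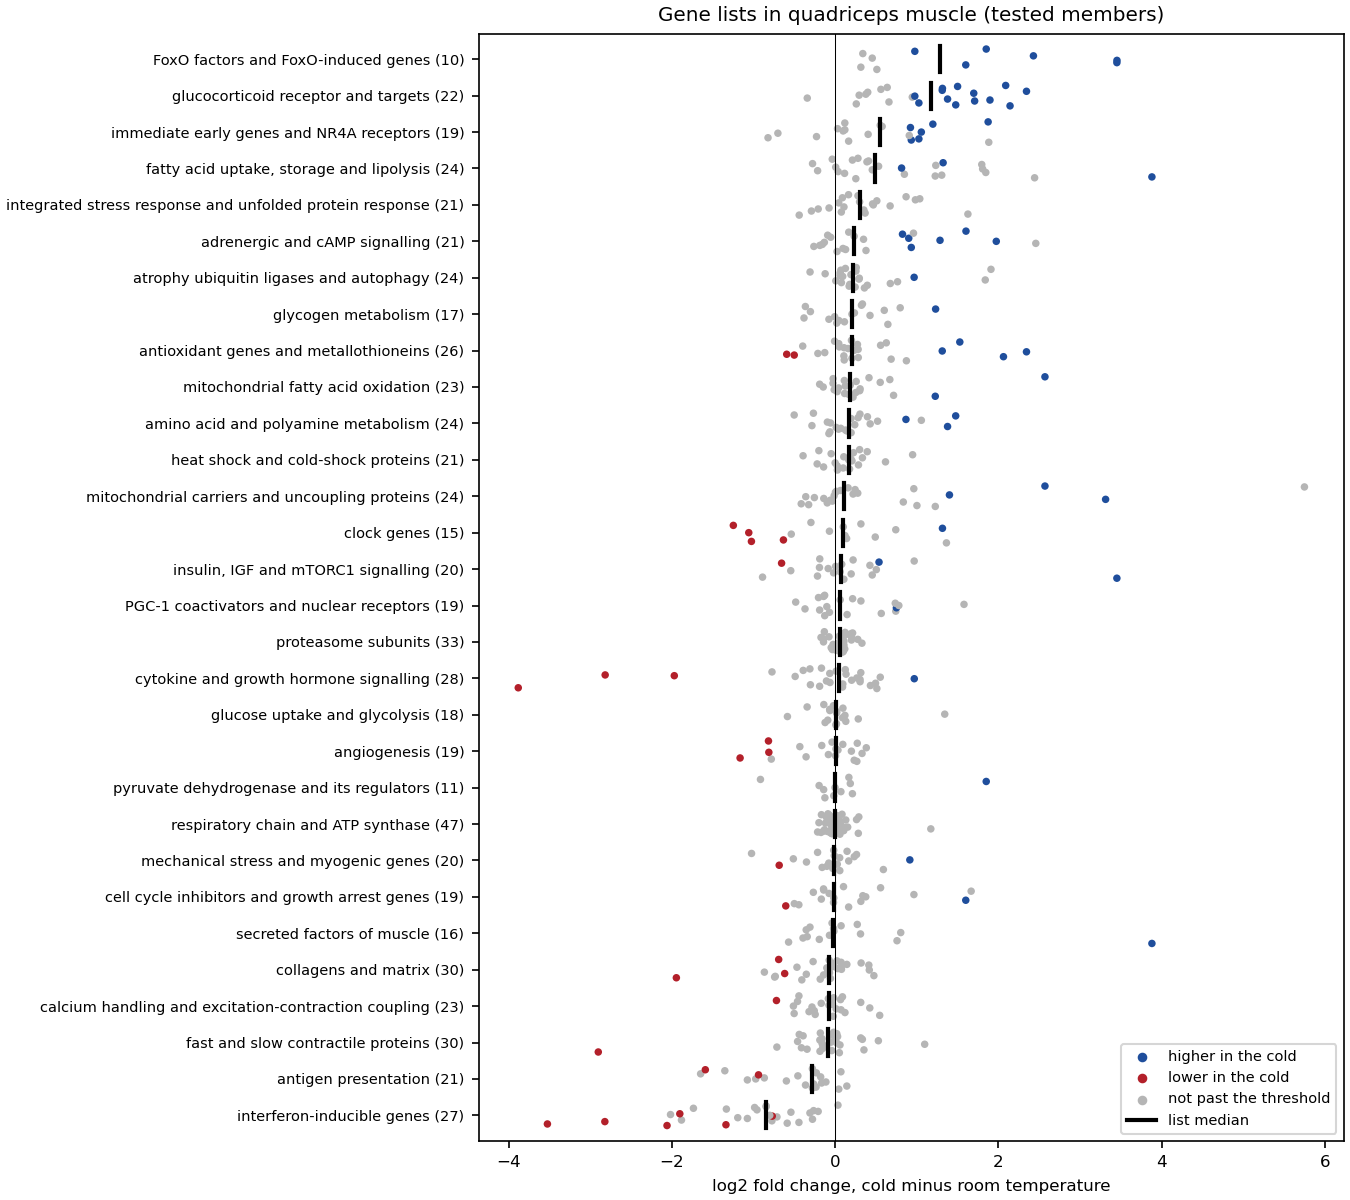
Log2 fold change, cold minus room temperature, of each tested member of the gene lists, with 1 point per gene, blue for genes that rose, red for genes that fell and grey for the rest; the black bar is the list's median and the number of tested members is in brackets. Medians run from 1.29 for FoxO targets and 1.17 for glucocorticoid targets at the top to -0.85 for interferon-inducible genes at the bottom, and most other medians lie near 0.

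The falls with the widest gap below all other arrays, brown fat included, were those of Tap2, Cish, Cd274, Rnf145, Polr2c, Unc5b, Hic1, Rpa3, Map11 and Bst2. Rnf145, a ubiquitin ligase of the endoplasmic reticulum, read 7.27 and 7.40 in the cold, against 8.23 and 8.21 at room temperature (-0.88, SE 0.12, adjusted p = 0.0163). Unc5b, a netrin receptor of vessels, read 6.00 and 6.21 in the cold, against 7.17 and 7.01 (-0.98, SE 0.12, adjusted p = 0.0129). Polr2c, a subunit of RNA polymerase II, read 7.44 and 7.40 in the cold, against 8.24 and 8.38 (-0.89, SE 0.10, adjusted p = 0.0085). Hic1, Rpa3 and Map11 fell by 0.90, 0.84 and 0.95 log2 units. In all 10 genes the brightest cold muscle was dimmer than the dimmest of the 6 other samples by at least 0.73 log2 units.

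Where a gene had more than 1 tested probe, the others usually pointed the same way with a smaller value. Of the 362 named genes that rose or fell, 62 had other tested probes, 76 in all. Of these probes 67 had the sign of the probe used and 11 of the 67 were past the threshold themselves, among them those of Ucp3, Noct, Actc1, Dusp10, Col6a1, Rictor, Slc38a2 and Srxn1.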

How the data were processed

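Whole quadriceps and brown fat RNA of mice was measured on 1-colour Illumina bead arrays, 2 arrays for each of 4 groups. The deposited table gives, per the file headers, a signal per probe and array as a non-normalized intensity, and beside it a detection score between 0 and 1. The deposited header calls this fraction a p-value, but it rises with the signal, and the detection p was therefore taken as its distance from 1. A second deposited table holds values the authors processed, on a linear intensity scale with negative entries; for its software, background correction and normalization the sources used here give nothing. It served as an alternative.

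Intensities were background-corrected with normexp on negative controls inferred from the detection scores, with an offset of 16, quantile normalized over the 8 arrays and taken to log2 in R 4.3.3 with limma 3.58.1. A probe was kept where some group had a detection p under 0.05 on each of its arrays, which left 11946, and each gene was read from its brightest probe, which gave 9963 genes, 8561 of them named. Gene names came from the platform annotation: 20980 probes have 1 symbol, 1 has several and 3626 have none, and 20964 matched RefSeq (GRCm38.p6). The cold effect in muscle was the contrast of the muscle groups in lmFit and eBayes over all 8 arrays, with Benjamini-Hochberg adjustment over all genes; all adjusted p-values are limma's. The fit had 4 residual and 3.07 prior degrees of freedom, and the number of arrays limits the precision. Before use it was tested on simulated data with known changes. A group not above background on either array was given a bound.

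The comparison and the lists were chosen with earlier results of these data known. Genes named with values were the 12 largest non-overlapping changes in each direction, those past the threshold also without each muscle array, the 10 widest gaps to all 6 other arrays, the leading 4 called members of each list (the leading 2 where none was called), Zbtb16 and defining markers. Other called members were named after their values were seen: Bhlhe41, Fam107a, Gstm1, Gstm2, Klf15, Klf4, Pde8a, Prkar2a, Serpina3n, Slc10a6 and Amy1, and, among those not called, Sgk1 and Hif3a. The labels' titles and descriptions number the cold muscle arrays in opposite order; the titles, which also head the columns, were used. Numbers were not taken as pairs, since the labels do not say that they mark a shared mouse. Across genes, the difference between replicates 1 and 2 in cold muscle correlated with that in room-temperature muscle at r = 0.07 with the titles' numbers. That value compares different temperature groups and cannot show whether muscle and brown fat came from the same mice, which was not tested. Promoters (32851, from 250 bases before to 50 after each start) came from RefSeq.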

Additional observations from a re-analysis of the deposited data

Results flagged for a closer look

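The cold effect in muscle was set against the cold effect in brown fat as an interaction contrast in the same limma fit, and the genes named above whose contrast passed the threshold are given here as the muscle effect minus the brown fat effect on the log2 scale, with adjusted p between 0.00635 and 0.0489. Groups of 2 arrays are too small to test for an outlying sample. Cold brown fat replicate 1 lacks the muscle transcripts that the other 3 brown fat arrays carry, and the part of this in the contrasts was not tested. Cold muscle replicate 2 carries brown fat transcripts, replicate 1 does so at a lower level, and their part was not tested either. On cold muscle replicates 1 and 2, Angptl4 read 9.64 and 11.32, Ifi27l2a 11.55 and 13.09, Gsta3 8.77 and 9.84, and Irf4 8.14 and 8.98. In these genes every brown fat array was brighter than both room-temperature muscles. A contrast says little where brown fat gave no measurable effect. Dnase1 and Ccn5 were above background on 0 of the 4 brown fat arrays, and Arrdc2 and Tnfaip2 on 1. Mt1 read 14.64 to 14.75 on all brown fat arrays, near the highest level on an array, 15.03, where a further rise can hardly be seen.

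Rises in muscle that exceeded the effect in brown fat were spread over fuel, stress and growth genes. The difference was 3.76 for Angptl4, 2.95 for Ucp3, 2.61 for Ddit4, 2.48 for Slc25a25, 1.93 for Foxo1, 1.14 for Pdk4, 1.07 for Slc25a30, 1.05 for Plin4 and 1.01 for Acacb. It was 2.29 for Mt1, 2.02 for Arrdc2, 1.66 for Zfp36, 1.09 for Cebpb, 1.85 for Glul and 0.97 for Pim3. It was 3.22 for Ifi27l2a, 3.03 for Gsta3, 1.94 for Irf4, 2.29 for Phlda1, 1.72 for Nudt18, 1.32 for Myo5a, 1.28 for Dnase1 and 1.06 for Rgcc. Mt2, whose values lie well below the top of the range, rose in muscle by 1.31 and had a log2 fold change of 1.11 in brown fat, a difference of 0.20 that did not pass (adjusted p = 0.518). Pdk4 read 14.66 and 14.67 in cold brown fat, also near the top of the range. In brown fat itself the log2 fold change of Ucp3 was -0.37 and that of Phlda1 was -0.98.

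Some genes were lower in the cold in muscle and less so, or the other way, in brown fat. The largest contrast was that of Socs2, -4.02, with -1.97 in muscle and 2.05 in brown fat. Dusp10 gave -2.57, Col1a1 -1.41, Tnfaip2 -1.40, Ccnd1 -1.38, Sox10 -1.28, Ccn5 -1.12, Rpa3 -0.91 and Tnc -0.89. Hsp90aa1 gave -1.87, with 0.62 in muscle, where it did not pass, against 2.49 in brown fat.

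Other genes were lower in the cold in both tissues, and more so in brown fat. Per3 gave 1.43, with -1.25 in muscle and -2.67 in brown fat. Dbp gave 1.17, with -1.06 in muscle and -2.23 in brown fat. Aplnr gave 0.89, and Lep 3.49, with -1.25 in muscle, where it did not pass, and -4.74 in brown fat, where neither cold array was above background.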

How the results depend on the processing

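The counts of risen and fallen genes were recomputed under 19 alternatives, and the fold changes of 118 named genes under each alternative that tested them. No called value changed sign in any of these, which was nearly given, since the genes were called from the same arrays. The counts moved beyond 1.5 times under median scaling (48 rose and 32 fell), with the muscle arrays alone (84 and 89) and with the authors' processed values (79 and 75). Leaving out 1 array of the 8 gave 26 to 460 rises and 19 to 243 falls, with the lowest counts without room-temperature muscle replicate 2 and the highest without cold muscle replicate 1. Of the 118 genes, calls were lost for 48 under median scaling, 41 with the authors' values, 28 with the muscle arrays alone, 34 without cold replicate 2, 52 and 63 without room-temperature replicates 1 and 2, and 21 without the filter on dim probes. Calls were gained for 9 without cold replicate 1, 3 without cold replicate 2, and 1 each with the authors' values and without either cold brown fat array. Leaving out a muscle array leaves a group with 1 array, which is assumed to vary like the other groups, and the cause of the other changes was not tested. Counts for gene lists under left-out arrays, muscle alone and median scaling were added after seeing the data; under median scaling 11 glucocorticoid targets rose and 0 interferon-inducible genes fell.

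With the replicate number of the titles as a block, 120 genes rose and 121 fell, and 19 of the 118 genes lost their call; with the numbers of the descriptions, 150 rose and 190 fell and 8 lost it. The labels do not say that replicate numbers mark shared mice, so the replicate block is no paired analysis. Whether muscle and brown fat came from the same mice was not tested. Arrays carry no counts, and genes near background limit what can be seen: fold changes of dim genes are compressed by the offset.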
